A study of Rattus norvegicus with 6 samples.

Results

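The 10 genes described here encode the enzymes that make serine and pass its carbon to folate, together with asparagine synthetase and the transcription factor ATF4. They were Phgdh, Psat1, Psph, Shmt1, Shmt2, Mthfd1, Mthfd2, Mthfd1l, Asns and Atf4. The choice was by name, as a metabolic pathway and its regulator, and earlier results of these data were known. All 10 were among the 17245 genes that a probe set with a single gene symbol represented on the array, and each was read from its probe set of highest mean intensity over the 6 arrays. No gene was left out for low intensity. The cells were neural stem and progenitor cells (NSPCs) of the adult rat hippocampus, cultured as neurospheres. Actively proliferating cultures (A-NSPCs) received FGF2 (10 ng/ml) during 4 days, and quiescent cultures (Q-NSPCs) received the same FGF2 together with BMP4 (50 ng/ml) over the same time. FGF2 is the mitogen of these cells and was present in both groups, while BMP4 halts their division. Each group had 3 biological replicates with 1 Affymetrix Rat Gene ST array each. The cells were expanded in culture before treatment, and the labels do not give the animals behind the replicates.

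Proliferating cells need serine for protein, glycine, nucleotides and lipids, and they can make it from a glycolytic intermediate. PHGDH oxidizes 3-phosphoglycerate, PSAT1 transfers an amino group from glutamate, and PSPH removes the phosphate to release serine. The serine hydroxymethyltransferases SHMT1 in the cytosol and SHMT2 in the mitochondrion then split serine into glycine and a one-carbon unit carried by folate. MTHFD2 and MTHFD1L carry that unit through the mitochondrion to formate, and MTHFD1 takes it up in the cytosol for the synthesis of purines and thymidylate. ASNS makes asparagine from aspartate and glutamine. ATF4 is a transcription factor of the amino acid response that activates many of these genes in mammalian cells, and its protein level is set largely by translation, which an array does not measure. Values below are log2 intensities made by the authors with RMA (background correction, normalization across arrays and summary of the probes of a probe set). Differences are Q-NSPC minus A-NSPC, so that negative values are lower in the quiescent cultures. Levels of different genes cannot be ranked, since probes differ in their response.

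Q-NSPC replicate 1 stood between the groups over the whole array, with a mean correlation across genes of 0.988 with the A-NSPC arrays and 0.988 with the other Q-NSPC arrays, whereas Q-NSPC replicates 2 and 3 had 0.971 and 0.973 with A-NSPCs and 0.991 and 0.992 with the other Q-NSPC arrays. Array medians lay between 7.53 and 7.57. Of 9 measured markers of neural stem and progenitor cells 2 rose, 0 fell and 7 did not pass the test. Of all genes 7.91% rose and 6.2% fell. An unadjusted p under 0.05 from limma was found for 6 of the 9 markers, and for 5090 of all 17245 genes. In their group means 5 of the 9 were lower and 4 higher in Q-NSPCs. The list averaged 10.82 to 11.01 in A-NSPCs and 10.66 to 11.07 in Q-NSPCs, a mean in which opposite changes can cancel. Lists of microglia (9 genes), endothelium (5 genes) and mural cells and fibroblasts (7 genes) averaged 6.26 to 6.90 in every array, under the array medians, and 0 of their genes passed limma's test (1 of the microglial genes had an unadjusted p under 0.05, and 0 of the others). RMA values carry no detection call, so none of these markers can be called absent.

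The 10 genes were lower in quiescent cultures in their group means, and 7 of them passed the test. Mthfd2 fell most, with a level 2.63-fold higher in A-NSPCs, followed by Shmt1 (2.30-fold), Asns (2.00-fold), Psat1 (1.98-fold), Shmt2 (1.90-fold), Phgdh and Psph (both 1.87-fold). Mthfd1l, Mthfd1 and Atf4 were 1.58-fold, 1.43-fold and 1.38-fold higher in A-NSPCs and did not pass. The test was limma fitted to the 17245 genes, with a Benjamini-Hochberg adjustment over those genes and a call at an adjusted p under 0.05. By the same rule 14.1% of all genes changed, 6.2% being lower in Q-NSPCs and 7.91% higher. The median log2 fold change of the 10 genes was -0.91, beside 0.01 over all genes. In 8 of the 10 genes each Q-NSPC array lay below each A-NSPC array, which held for 15.3% of all genes (34% had groups that did not overlap in either direction). The 95% intervals of the 10 changes overlapped one another, so the order of the genes by size of change is a description. The p-values rest on the spread between 3 cultures per group, which limma combines with a spread estimated from all genes. The standard error from a gene's own spread was larger for each of the 10 genes (for Mthfd2 0.38, beside 0.28 in limma). Without shared variance, 0 of the 10 genes and 0 of all genes passed in an unpaired comparison, so the calls depend on that sharing. In whole cultures fewer cells that express a gene cannot be told apart from less RNA per cell.

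**Figure D1:**
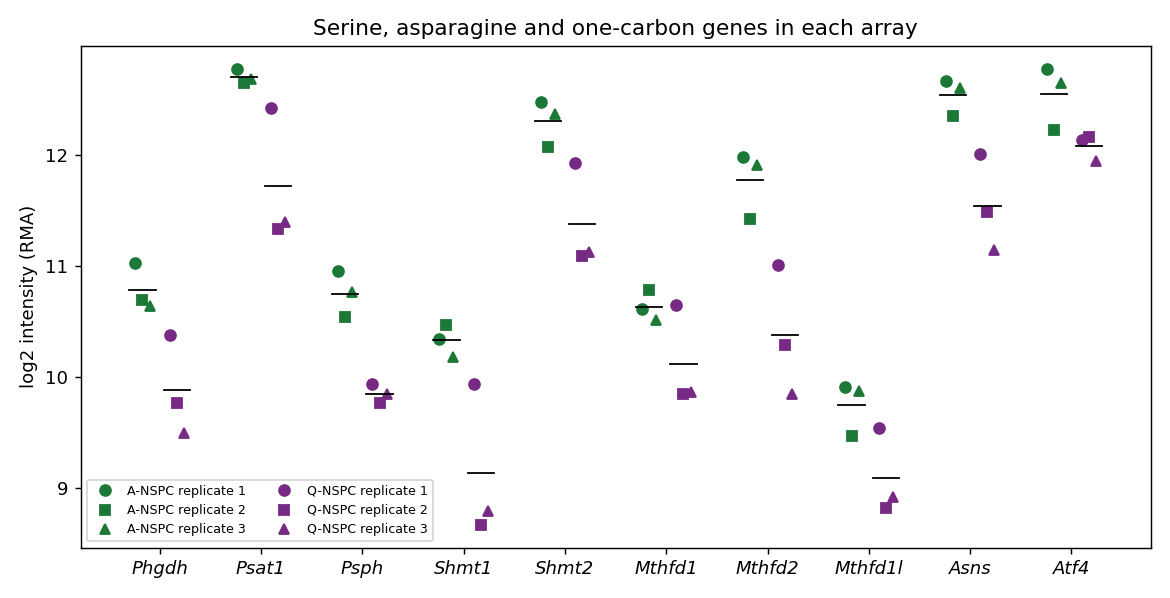
Log2 intensity (RMA, y axis) of the 10 genes (x axis) in the 3 A-NSPC arrays (green) and the 3 Q-NSPC arrays (purple). Symbols stand for replicates and horizontal lines for group means, and the arrays overlap between groups only in Mthfd1 and Mthfd1l.

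The calls depended on single arrays, while the direction did not. Each of the 10 genes stayed lower in Q-NSPCs when any 1 array was left out. The number past the threshold was 9 when Q-NSPC replicate 1 was dropped and 4 when A-NSPC replicate 2 was. It was 1 when any of A-NSPC replicates 1 and 3 or Q-NSPC replicates 2 and 3 was dropped. The shares of all genes called lower in those fits were 10.9%, 2.89%, 0.591%, 0.823%, 1.54% and 0.713%, in the same order. Psph was called in all 6 of these fits. Without both Q-NSPC replicate 1 and A-NSPC replicate 2, a choice made after the values were seen, all 10 genes passed, beside 10.6% of all genes called lower.

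**Figure D2:**
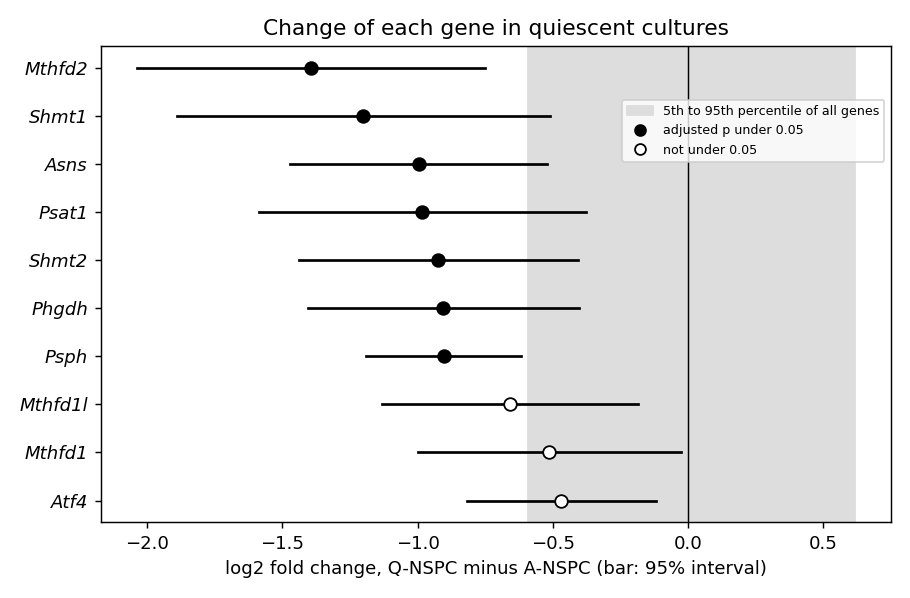
Log2 fold change (x axis, Q-NSPC minus A-NSPC) of each gene with its 95% interval from limma. Filled circles mark an adjusted p under 0.05, the grey band spans the 5th to 95th percentile of all genes (-0.59 to 0.62), and 8 of the 10 points lie below that band.

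The 3 enzymes of serine synthesis fell together. Phgdh, which commits glycolytic carbon to serine, had log2 intensities of 11.03, 10.69 and 10.64 in A-NSPC replicates 1 to 3 and 10.38, 9.77 and 9.50 in Q-NSPC replicates 1 to 3. The groups did not overlap, and the quiescent arrays spread more widely (SD 0.45, n = 3) than the active ones (SD 0.21, n = 3). The log2 level of Phgdh fell by 0.91 (standard error, SE, 0.22, adjusted p = 0.0319 from limma, up to 0.121 with 1 array left out). Psat1, the aminotransferase of the second step, had 12.78, 12.65 and 12.69 in A-NSPCs and 12.43, 11.34 and 11.40 in Q-NSPCs. It was high and even in the active cultures, and Q-NSPC replicate 1 was far nearer to them than to the other quiescent cultures. The log2 level of Psat1 fell by 0.98 (SE 0.26, adjusted p = 0.0436 from limma), and its adjusted p was 9.09e-05 once Q-NSPC replicate 1 was left out, 0.156 once replicate 3 of that group was, and 0.0529 after another quantile normalization. Psph, the phosphatase of the last step, had 10.96, 10.54 and 10.77 in A-NSPCs and 9.94, 9.77 and 9.85 in Q-NSPCs. Unlike Psat1, it was alike in the 3 quiescent cultures (SD 0.08, n = 3), with Q-NSPC replicate 1 as low as the others. The log2 level of Psph fell by 0.90 (SE 0.12, adjusted p = 0.00627 from limma), and its adjusted p stayed between 0.00171 and 0.039 whichever array was left out. The RefSeq gene table of the rat lists 6 entries named as copies of Phgdh (the symbol followed by -ps and a number) and 1 of Psat1. Probes shared with such copies cannot be told apart from those of the genes.

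The serine hydroxymethyltransferases fell in the cytosol and in the mitochondrion. Shmt1, the cytosolic enzyme, had log2 intensities of 10.34, 10.47 and 10.18 in A-NSPCs and 9.94, 8.67 and 8.79 in Q-NSPCs. Its quiescent arrays were the most widely spread of the 10 genes (SD 0.70, n = 3), with replicate 1 close to the active cultures and replicates 2 and 3 well below. The log2 level of Shmt1 fell by 1.20 (SE 0.30, adjusted p = 0.0354 from limma, 8.55e-05 without Q-NSPC replicate 1 and up to 0.134 without another array). Shmt2, the mitochondrial enzyme, had 12.48, 12.07 and 12.37 in A-NSPCs and 11.93, 11.10 and 11.13 in Q-NSPCs. It repeated the order of the quiescent arrays seen for Shmt1 and its log2 level fell by 0.92 (SE 0.23, adjusted p = 0.0332 from limma, up to 0.126 with 1 array left out). The RefSeq table lists 1 entry named as a copy of Shmt2. Within each array the difference Shmt2 minus Shmt1 was 0.28 higher in Q-NSPCs than in A-NSPCs (exact permutation test, two-sided, p = 0.3, adjusted p = 0.45 over the 3 pairs of partner enzymes compared). With 3 arrays against 3 this test cannot give a p below 0.1.

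Among the enzymes that pass the one-carbon unit along, the mitochondrial dehydrogenase changed most. Mthfd2, which is known for its high level in proliferating and transformed cells, had log2 intensities of 11.99, 11.42 and 11.92 in A-NSPCs and 11.01, 10.29 and 9.84 in Q-NSPCs. Even the highest quiescent array lay below the lowest active one. The log2 level of Mthfd2 fell by 1.40 (SE 0.28, 95% interval -2.04 to -0.75, adjusted p = 0.0186 from limma). Its adjusted p was 0.000592 without Q-NSPC replicate 1 and reached 0.084 without A-NSPC replicate 1. Only 0.47% of all genes had as low a log2 fold change. Mthfd1l, the mitochondrial enzyme that releases formate, had 9.91, 9.47 and 9.88 in A-NSPCs and 9.55, 8.81 and 8.92 in Q-NSPCs. Q-NSPC replicate 1 lay within the range of the active cultures, and the log2 fold change of -0.66 (SE 0.21) had an adjusted p = 0.0697 from limma, 0.00377 without Q-NSPC replicate 1 and up to 0.215 without another array.

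Mthfd1, the trifunctional enzyme of the cytosol, gave a different answer on each of its 2 probe sets. The brighter one had 10.61, 10.78 and 10.51 in A-NSPCs and 10.65, 9.84 and 9.87 in Q-NSPCs, so that Q-NSPC replicate 1 was as high as the active cultures while the others were lower. Its log2 fold change was -0.51 (SE 0.21, adjusted p = 0.149 from limma, 0.00193 without Q-NSPC replicate 1 and up to 0.38 without another array). The dimmer one had 8.99, 8.92 and 8.95 in A-NSPCs and 8.09, 7.83 and 7.93 in Q-NSPCs. Here the quiescent cultures were alike, replicate 1 included, and the log2 level fell by 1.00 (SE 0.10, adjusted p = 0.00252 from limma in a fit with the second probe set, added after the values were seen). The mean of both gave -0.76 (adjusted p = 0.0173). In the array's numbering, the 20 annotated neighbours of the dimmer probe set include 0 genes of the chromosome of Mthfd1, against 18 for the brighter one. The dimmer probe set stands between Fbln7 and Zc3h6. The RefSeq table places the copy Mthfd1-ps1 between the same pair of genes, with Zc3h8 between Fbln7 and the copy. Which transcript the dimmer probe set measures was not tested. Mthfd2 also had a second probe set, whose 20 neighbours include 0 genes of its chromosome, and the log2 fold change there was -1.19 (SE 0.24, adjusted p = 0.019), close to the -1.40 of the brighter one.

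The mitochondrial enzymes were set against their cytosolic partner within each array. Mthfd2 minus Mthfd1 was 0.88 lower on the log2 scale in Q-NSPCs than in A-NSPCs, and the 3 quiescent arrays (-0.79, -0.70 and -1.16 from the A-NSPC mean) lay below the 3 active ones (0.24, -0.50 and 0.26). The exact permutation test gave p = 0.1, the smallest it can give here, and an adjusted p = 0.3 over the 3 pairs. These values rest on the brighter probe set of each gene. With the mean of the probe sets of each gene the change in Mthfd2 minus Mthfd1 was -0.54 (exact permutation test, adjusted p = 0.45). Mthfd1l minus Mthfd1 was 0.14 lower in Q-NSPCs (exact permutation test, p = 0.5, adjusted p = 0.5), and 0.10 higher with the mean of the probe sets of Mthfd1.

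Asns fell as the serine enzymes did, while the smaller difference in Atf4 did not pass. Asns had log2 intensities of 12.67, 12.36 and 12.60 in A-NSPCs and 12.01, 11.49 and 11.15 in Q-NSPCs. The groups were clearly apart, and the log2 level of Asns fell by 1.00 (SE 0.21, adjusted p = 0.0204 from limma, 0.000669 without Q-NSPC replicate 1 and up to 0.0883 without another array). Atf4 had 12.78, 12.23 and 12.65 in A-NSPCs and 12.14, 12.17 and 11.95 in Q-NSPCs. The quiescent arrays were close together, and A-NSPC replicate 2 was almost as low as they were. The log2 fold change of Atf4 was -0.47 (SE 0.15, 95% interval -0.82 to -0.12, adjusted p = 0.0768 from limma), with an adjusted p = 0.0342 without A-NSPC replicate 2 and between 0.0709 and 0.232 without any other array.

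The promoters of 9 of the 10 genes were read from the RefSeq promoter table (build GRCr8, 250 bases before to 50 bases after the annotated start) to show what sequence lies near their starts. Of these 9, 7 fell, and Atf4 and Mthfd1l did not pass the test. The E-box CACGTG, a site bound by MYC and related factors, was present in 2 of the 9, Shmt1 and Atf4, and in 6.42% of the 33469 promoters in the table. The CCAAT box, read on both strands, was present in 4 of the 9 (Phgdh, Psat1, Shmt1 and Mthfd2) and in 37.5% of all promoters. The letters TGATGNAA, the core of the composite element that ATF4 binds with C/EBP partners, were found on neither strand of the 9 windows and in 3.98% of all promoters. These windows end 50 bases after the start annotated in RefSeq, so that sequence further into the gene and distal elements were not read. The 150 bases before the start are shown for the 2 genes with an E-box and for Mthfd2, the gene that fell most, which has 3 CCAAT boxes. Shmt1 is at chr10:45990342-45990491 on the minus strand, Atf4 at chr7:113684531-113684680 on the plus strand and Mthfd2 at chr4:117380351-117380500 on the minus strand. Each sequence runs 5′ to 3′ towards the gene, and capitals mark CACGTG in Shmt1 and Atf4 and CCAAT or its reverse complement ATTGG in Mthfd2.
Shmt1: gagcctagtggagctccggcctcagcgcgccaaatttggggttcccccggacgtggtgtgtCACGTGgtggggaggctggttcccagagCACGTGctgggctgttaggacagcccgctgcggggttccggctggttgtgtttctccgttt
Atf4: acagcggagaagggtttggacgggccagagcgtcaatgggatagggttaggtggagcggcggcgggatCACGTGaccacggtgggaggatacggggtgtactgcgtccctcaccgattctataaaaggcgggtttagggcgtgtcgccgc
Mthfd2: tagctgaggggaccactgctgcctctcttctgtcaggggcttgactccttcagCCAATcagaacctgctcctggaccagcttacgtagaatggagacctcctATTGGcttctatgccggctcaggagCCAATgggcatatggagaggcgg

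The 10 genes differed in how far Q-NSPC replicate 1 had moved. Taking the distance from the A-NSPC mean to the mean of Q-NSPC replicates 2 and 3 as 100%, replicate 1 had gone 86.4% of the way for Psph and 82.8% for Atf4, but -2.21% for Mthfd1, 20.6% for Psat1, 23.4% for Mthfd1l and 24.7% for Shmt1. Mthfd2 (45%), Asns (43.5%), Phgdh (35.2%) and Shmt2 (31.6%) lay in between. The value of Mthfd1 is that of its brighter probe set. On the dimmer one Q-NSPC replicate 1 (8.09) lay nearer to Q-NSPC replicates 2 and 3 (7.83 and 7.93) than to the A-NSPC mean (8.95). Markers of dividing cells were also lower in Q-NSPCs. Of 18 measured, 11 fell, 0 rose and 7 did not pass, beside 6.2% of all genes that fell and 7.91% that rose. Their mean log2 intensity ranged from 11.24 to 11.34 in A-NSPCs and from 10.03 to 10.97 in Q-NSPCs. The highest of the Q-NSPC values was that of replicate 1, at 25.8% of the way. For the mean of 36 ATF4 targets outside the 10 genes, replicate 1 was at 62.7%. Among other lists described below, it was at 11.2% for the oligodendrocyte lineage and 21.6% for glycine cleavage and serine breakdown. For purine synthesis it was at 31%, and for glutamate, aspartate and proline supply at 38.4%. Folate and serine carriers had 45.1%, neuronal markers 61.9%, and thymidylate and folate recycling 98.3%. Mki67, a marker of dividing cells, had 12.21, 12.28 and 12.29 in A-NSPCs and 12.02, 10.83 and 11.15 in Q-NSPCs, a log2 fold change of -0.92 that did not pass (adjusted p = 0.0529 from limma). The lists of other neural cells also moved in their means, and their counts stand beside the same shares of all genes. Of 12 neuronal markers 7 rose and 1 fell (mean log2 intensity 8.96 to 9.05 in A-NSPCs and 9.78 to 10.26 in Q-NSPCs). Of 10 oligodendrocyte lineage markers 2 fell and 0 rose (9.76 to 9.91 and 8.68 to 9.72). All 10 of these were lower in Q-NSPCs in their group means. An unadjusted p under 0.05 from limma was found for 7 of them, and for 5090 of all 17245 genes. Of 7 astrocyte markers 1 rose and 0 fell (8.83 to 9.02 and 9.18 to 9.28), and a count this small is not read further. The part of these other cells, and that of the dividing cells, in the lower values of the 10 genes was not tested.

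**Figure D3:**
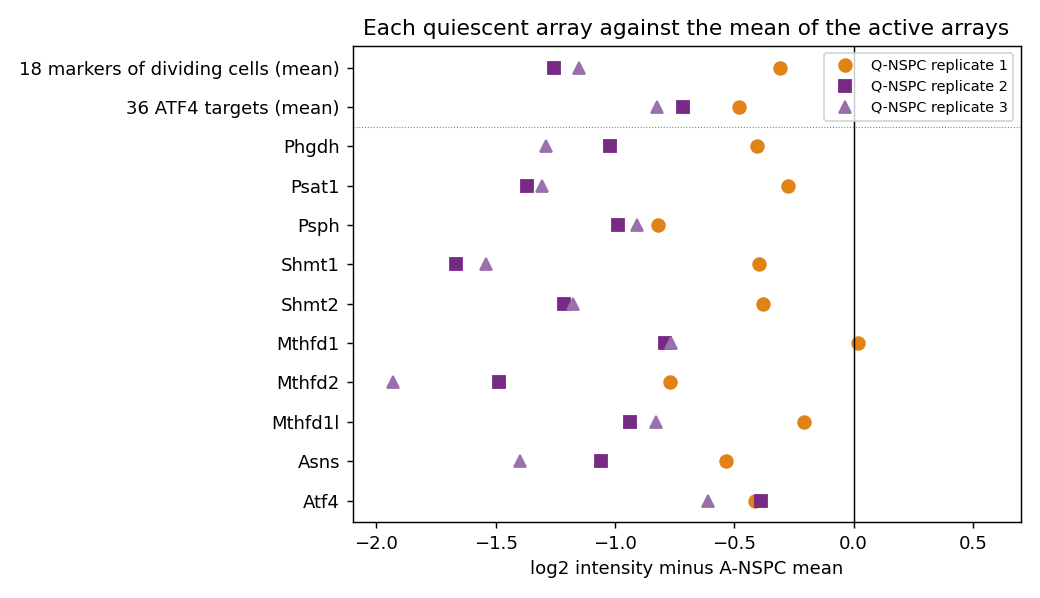
Log2 intensity of each Q-NSPC array minus the A-NSPC mean (x axis) for the 10 genes and for the means of 18 markers of dividing cells and of 36 ATF4 targets (y axis). Q-NSPC replicate 1 (orange circles) is nearest to the active cultures for most genes, but lies beside the other quiescent arrays for Psph and Atf4. Mthfd1 is drawn from its brighter probe set.

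Other genes that ATF4 is known to activate were lower in Q-NSPCs in the majority of cases. Of 36 measured targets outside the 10 genes, 19 fell, 0 rose and 17 did not pass, and the median log2 fold change was -0.72, beside 0.01 over all genes, of which 6.2% fell. The 3 with the smallest p were Mars1, the methionyl-tRNA synthetase (log2 fold change -0.95, adjusted p = 0.0109), Pycr1, an enzyme of proline synthesis (-1.20, adjusted p = 0.0118), and Stc2, the secreted protein stanniocalcin-2 (-0.80, adjusted p = 0.0122). The arginine transporter Slc7a3 had 0.02 (adjusted p = 0.93). Among further targets, picked here after their values were seen, the cystine transporter Slc7a11 fell by 1.73, the arginine transporter Slc7a1 by 1.52 and the translation inhibitor Eif4ebp1 by 1.25 on the log2 scale. The stress factor Ddit3, known as CHOP, stood at 0.01 (adjusted p = 0.988) and Ddit4, an inhibitor of mTORC1, had -0.06 (adjusted p = 0.831). Dropping Q-NSPC replicate 1 turned the count of 19 into 23, dropping A-NSPC replicate 2 into 22, dropping Q-NSPC replicate 2 into 5 and dropping Q-NSPC replicate 3 into 1. The count was 0 when A-NSPC replicate 1 or 3 was dropped. Of all genes 10.9%, 2.89%, 1.54%, 0.713%, 0.591% and 0.823% were called lower in these fits, in the same order, so the calls over all genes moved too.

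The active cultures also differed from each other in these genes. A-NSPC replicate 2 was the lowest of the 3 active arrays in 33 of the 36 targets and in 7 of the 10 genes, against 35.2% of all genes and 2 of the 18 markers of dividing cells. It lay 0.53 below the mean of the other A-NSPC arrays on the log2 scale for Mthfd2 and 0.48 below for Atf4. Its deviations were largest for Cth (-1.31), Nupr1 (-1.21), Chac1 (-1.19) and Slc7a11 (-1.15). Cth, of cysteine synthesis, had 9.34, 7.72 and 8.71 in A-NSPCs and 7.48, 8.03 and 7.36 in Q-NSPCs, and Chac1, which degrades glutathione, had 11.01, 9.55 and 10.46 in A-NSPCs and 10.02, 9.38 and 9.42 in Q-NSPCs. In both, the groups overlapped through A-NSPC replicate 2. The pattern was noticed in these arrays and has no test.

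**Figure D4:**
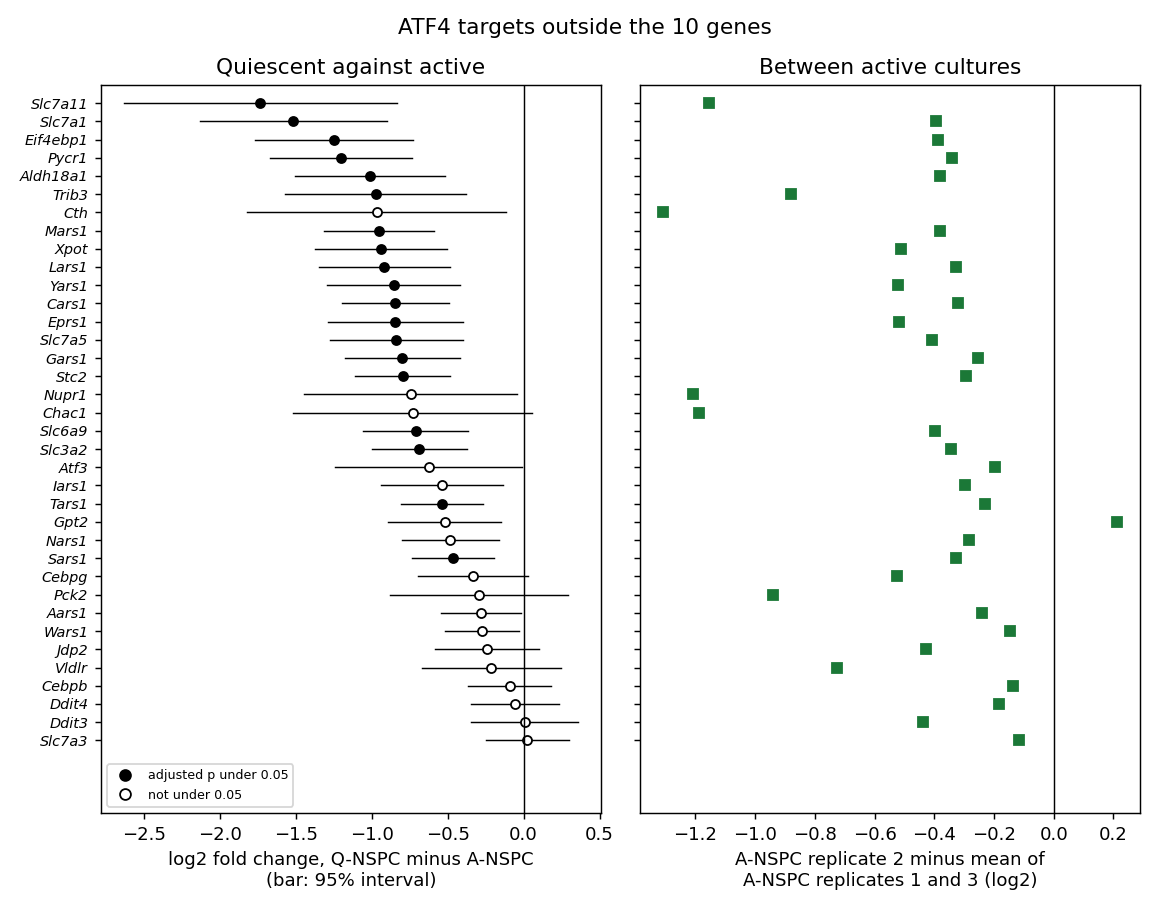
Left, log2 fold change (Q-NSPC minus A-NSPC) with 95% interval of 36 ATF4 targets, of which the 19 filled circles have an adjusted p under 0.05. Right, log2 intensity of A-NSPC replicate 2 minus the mean of A-NSPC replicates 1 and 3 for the same genes, which is below 0 for all of them except Gpt2.

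The lists around the 10 genes are given beside the 6.2% of all genes that fell and the 7.91% that rose. Of 8 measured genes of thymidylate synthesis and folate recycling 3 fell and 0 rose. These were Ggh, which trims folate polyglutamates (log2 fold change -0.79, adjusted p = 0.0152), Tyms, the thymidylate synthase (-0.54, adjusted p = 0.0419), and Aldh1l2, the mitochondrial formyl-folate dehydrogenase (-0.59, adjusted p = 0.0444), while Mthfs, which recycles formyl-folate, had 0.36 (adjusted p = 0.0813). Of 10 purine synthesis genes 2 fell and 0 rose, Adsl (-0.66, adjusted p = 0.0133) and Paics (-0.52, adjusted p = 0.0274). Pfas, of the same route, had -0.71 (adjusted p = 0.0593) and Adss2, of the adenylate branch, 0.50 (adjusted p = 0.0642). In the methionine cycle and transsulfuration 1 of 10 genes fell, Ahcy, which hydrolyses S-adenosylhomocysteine (-0.63, adjusted p = 0.0484), and 1 rose, its relative Ahcyl2 (1.08, adjusted p = 0.0167), shares near those of all genes. Cth had -0.97 (adjusted p = 0.123).

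Carriers and suppliers of the pathway's substrates that fell included Slc1a4, Slc6a9 and Got1. Of 11 folate and serine carriers 2 fell and 0 rose. Slc1a4, a transporter of serine, alanine and cysteine, had log2 intensities of 10.81, 10.33 and 10.87 in A-NSPCs and 9.80, 8.98 and 8.83 in Q-NSPCs. The groups did not overlap, and the log2 level of Slc1a4 fell by 1.46 (SE 0.26, adjusted p = 0.0129), a size next to that of Mthfd2. The glycine transporter Slc6a9 fell by 0.71 (adjusted p = 0.0217), the mitochondrial folate carrier Slc25a32 had -0.39 (adjusted p = 0.0706) and the folate transporter Slc46a1 had 0.16 (adjusted p = 0.409). Of 10 genes that supply glutamate, aspartate and proline 4 fell and 0 rose, among them Got1, the aspartate aminotransferase of the cytosol (-0.77, adjusted p = 0.00718), Pycr1 (-1.20) and Aldh18a1, of proline synthesis (-1.01, adjusted p = 0.0222). Glud1, the glutamate dehydrogenase, had 0.19 (adjusted p = 0.27). Of 11 genes of glycine cleavage and serine breakdown 0 passed limma's test, and 2 had an unadjusted p under 0.05. The smallest p-values were those of Gcsh, of the glycine cleavage system (-0.42, adjusted p = 0.0639), the serine racemase Srr (-0.57, adjusted p = 0.0649) and the dehydratase Sdsl (-0.20, adjusted p = 0.329), beside Gcat (0.11, adjusted p = 0.558). Over these lists and those of ATF4 targets and regulators, 30 of 117 measured genes fell and 2 rose, beside 6.2% and 7.91% of all genes, and 19 of the 30 were ATF4 targets. The median log2 fold change of the 117 genes was -0.23, beside 0.01 over all genes. ATF4 targets shared with another list (Pycr1, Aldh18a1, Slc6a9, Cth and Gpt2) were counted once in this total.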

How the data were processed

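Adult rat hippocampal NSPC neurospheres were profiled on Affymetrix Rat Gene ST arrays, 3 A-NSPC and 3 Q-NSPC cultures, grouped and numbered from the deposited labels. The deposited values are log2 intensities that the authors made with RMA, using Affymetrix Expression Console and Partek 6.10 per the labels. No step was repeated, and quantile normalization across arrays can hide a shift shared by all genes. Of 29214 probe sets, 18644 had 1 gene symbol in the platform annotation, 962 had several and 9608 had none. Where several probe sets named a gene (879 genes), the brightest was used. Symbols of 18460 probe sets were looked up by Entrez number in the RefSeq table (GRCr8), which changed 0.

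The test was limma 3.58.1 in R 4.3.3 (group means, plain eBayes, two-sided) over 17245 genes, with Benjamini-Hochberg adjustment and calls at an adjusted p under 0.05. Its code was run on simulated data with independent noise and no array between the groups, which does not bear on the calls made here. Partner enzymes were compared with an exact permutation test over the 20 assignments of 6 arrays to 2 groups of 3. Deviations of arrays with the same replicate number were not correlated (r = -0.05, 0.01 and -0.03), so the numbers were not used as pairs. The 10 genes and the other lists were chosen with earlier results of these data known. Beside the 10 genes, the text names in each pathway list the 3 genes of smallest p and, where those share a direction, the first in the other direction, and Mki67 among the markers. Genes named beyond this rule (Slc7a11, Slc7a1, Eif4ebp1, Ddit3, Ddit4, Nupr1, Chac1, and Cth as an ATF4 target) were picked after their values were seen. Alternatives covered the variance model, the block, the probe set, a filter on dim genes, the normalization, each array left out and plain t-tests. The number of arrays limits the precision.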

Additional observations from a re-analysis of the deposited data

How the results depend on the processing

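In each alternative tried, the log2 fold change of each of the 10 genes stayed below 0. Among their recomputed values 100 stayed on the same side of the threshold, 43 lost the call and 9 gained it. The 100 include genes that were uncalled in both fits, and the counts take in the settings added after the values were seen. With 1 array left out, between 1 and 9 of the 10 genes passed, between 419 and 4079 genes of all, and between 1 and 52 of the 117 pathway genes. By unpaired t-tests without shared variance 0 of the 10 genes, 0 of the 117 pathway genes and 0 of all genes passed after adjustment, and by paired t-tests 0, 0 and 1, while 6 and 3 of the 10 genes, and 4241 and 2716 of all genes, had an unadjusted p under 0.05, against 10 and 5090 in limma. Without both A-NSPC replicate 2 and Q-NSPC replicate 1, 61 pathway genes and 3866 of all genes passed. Trend and robust settings, the filter on dim genes, centring on medians and repeated quantile normalization left 6 or 7 of the 10 called, beside 5.99% to 9.5% of all genes called lower, and the mean of the probe sets 8, beside 6.23%. With the replicate number as a block, a number the arrays do not show to pair the cultures, 8 of the 10 genes passed (Mthfd1l in addition, adjusted p = 0.033) and 2043 of all genes, 5.51% being called lower. Mthfd1l minus Mthfd1 turned to 0.10 with the mean of the probe sets, from -0.14, since the second probe set of Mthfd1 moved more. The causes of the other shifts were not tested. RMA values carry no background call, which limits what can be said of dim genes.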

Other observations

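The regulators upstream of the pathway are given beside the 6.2% of all genes that fell and the 7.91% that rose. Of 13 measured kinases, phosphatase subunits and subunits of eIF2 and eIF2B, which set the translation of ATF4, 2 fell and 0 rose, namely Eif2b3, a subunit of the exchange factor eIF2B (log2 fold change -0.91, adjusted p = 0.0124 from limma), and Eif2s2, the beta subunit of eIF2 (-0.58, adjusted p = 0.02). The phosphatase subunits Ppp1r15b and Ppp1r15a had -0.40 (adjusted p = 0.0589) and 0.17 (adjusted p = 0.247). Of 13 other regulators linked to serine synthesis 1 rose and 0 fell. Ehmt2, the histone methyltransferase G9a, rose by 0.69 (adjusted p = 0.0226), Mdm2, the ubiquitin ligase of p53, had 0.30 (adjusted p = 0.0603), and Myc had -1.27 (adjusted p = 0.0619). Myc had log2 intensities of 10.64, 10.92 and 10.81 in A-NSPCs and 10.55, 8.80 and 9.22 in Q-NSPCs, so that Q-NSPC replicate 1 was near the active cultures and the groups did not overlap.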
